A study of Danio rerio with 15 samples.

Results

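The genes described here encode proteins of the intestinal lining of the zebrafish larva: carriers and enzymes for fat and retinol, brush border enzymes, nutrient transporters, chitinases, the protein uptake machinery of lysosome-rich enterocytes, goblet cell products and the gut transcription factor gene cdx1b. They were chosen by name, with earlier results of these data known. Of 32 names, 30 had a row among the 36351 genes of both deposited tables, of which npc1l1 was listed in capitals and was matched ignoring case. The chitinase gene chia.5 and the apolipoprotein gene apoa4b.3 had no row. The mucin gene muc2.1 had a base mean (the average normalised read count over the libraries of a fit) under 10, which left 29 genes for the medians and the comparison of the compounds. After the authors' filter on low means, 29 of the 30 had an adjusted p with TCPM and 28 with TCPMOH, where chia.4 had none.

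Each sample pooled 8 to 10 whole larvae (Danio rerio, AB wild type) collected at 100 hours after fertilization. From 24 hours on the water held 50 nM TCPM, 50 nM TCPMOH or, in the controls, 0.01% DMSO by volume, the vehicle. The first is tris(4-chlorophenyl)methane. The second, tris(4-chlorophenyl)methanol, is its alcohol, in which a hydroxyl group takes the place of the hydrogen on the central carbon. Each of the 3 groups had 5 samples, of which 4 entered each fit as read from the values, and the same 4 DMSO libraries served both comparisons.

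The larval gut is a simple tube without crypts, in which absorptive enterocytes of the front segment take up fat, sugars and peptides, enterocytes of the middle segment recover bile acids and engulf whole proteins, and goblet cells secrete mucus. Fat that enters an enterocyte is bound by small carrier proteins, rebuilt into triglyceride and exported on apolipoprotein particles. The yolk syncytial layer, which empties the yolk, also makes such particles and shares apolipoprotein and mttp transcripts with the gut. Cubilin, amnionless and Dab2 also serve protein uptake in the kidney tubule.

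Depth, estimated from the values, ran from 18.2 to 25.9 M reads per library in the first fit (TCPM) and from 18.1 to 25.7 M in the second (TCPMOH). The deposited tables hold no value per library, so each gene is given by its group means. These were recovered from the base mean and the fold change after the authors' shrinkage toward 0 was undone, and they are normalised read counts on the scale of the TCPM fit, with the DMSO mean first, then TCPM, then TCPMOH. They are not corrected for transcript length, so they compare groups within a gene and not genes with one another. Folds are before shrinkage, with 95% intervals from the fit, and cover the spread between pools. The labels describe 3 experimental replicates and do not say which pools belong to which, so pools may share one and the spread may in part be technical. Log2 values are those of the authors' deposited tables, turned to compound over DMSO.

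Larvae given TCPM had more transcript of 7 of the 29 tested intestine genes: fabp2, rbp2a, apoa4b.2, vil1, slc5a1, chia.1 and chia.2. Larvae given TCPMOH had more of 4 of 28, namely fabp2, apoa4b.2, slc5a1 and chia.2, and all 4 were among the 7. Both comparisons used the same DMSO libraries, so this overlap is not agreement between independent tests. No intestine gene was called lower with either compound. The rises were small, from 1.28-fold to 1.45-fold among those called. A gene was called at an adjusted p under 0.05 in the authors' deposited DESeq2 table. Over all genes tested, 1.89% were called with TCPM (1.27% higher, 0.616% lower) and 2.55% with TCPMOH (1.54% higher, 1.00% lower). As counts these were 419 genes with TCPM and 547 with TCPMOH, and 728 were called with either at the base mean limit above. Calls were thus shared outside the intestine genes too. Test scores of the 22004 uncalled genes correlated at 0.62 between the comparisons. The share of all genes called with both was not computed, and the overlap of the intestine genes was not tested against it.

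Over the 29 genes of sufficient base mean (10 or more), the median log2 fold change in the authors' deposited tables was 0.12 with TCPM and 0.10 with TCPMOH, beside -0.00029 and -0.0030 over 22732 genes with such a mean. With TCPM 19 of the 29 had a positive value, or 65.5%, beside 49.9% of all genes, and with TCPMOH 21, or 72.4%, beside 48.8%. At an unadjusted p under 0.05, 13 of the 29 were higher and 1 lower with TCPM, beside 4.88% and 3.62% of all genes. With TCPMOH 9 were higher and 1 lower, beside 5.02% and 4.25%. Because the list was chosen with earlier results of these data known, these shares describe it and do not test it. In whole larvae, more cells of a type and more RNA per cell cannot be told apart.

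**Figure D1:**
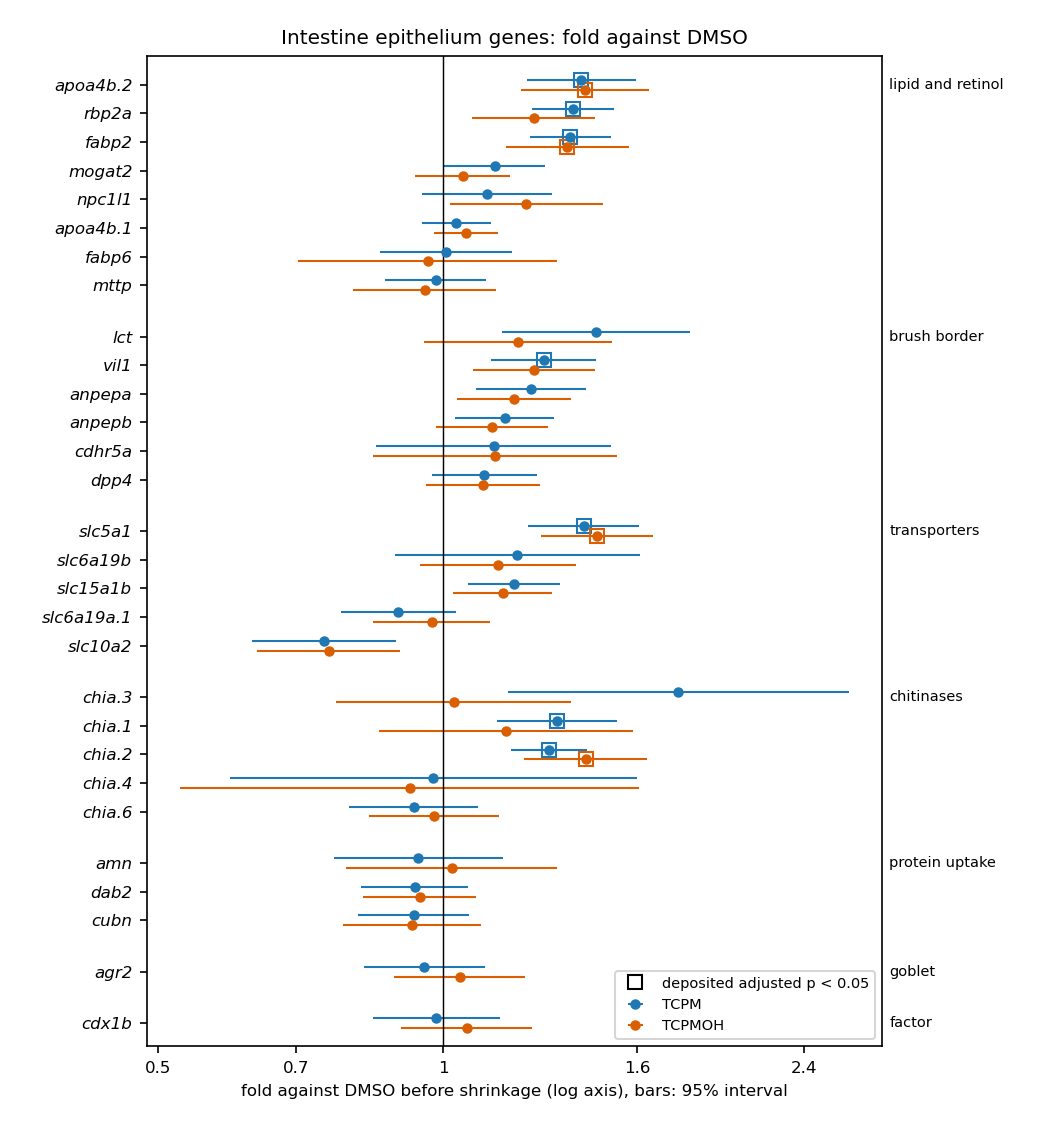
Fold against DMSO before shrinkage (log axis) of 29 intestine genes with TCPM (blue) and TCPMOH (orange), n = 4 libraries per group, ordered by role and, within a role, by the fold with TCPM. Bars are 95% intervals and open squares mark a deposited adjusted p under 0.05, which all lie right of 1, while slc10a2 has the lowest TCPM value at 0.748.

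Among the genes of fat and retinol handling, 3 of 8 rose with TCPM and 2 with TCPMOH, beside 1.27% and 1.54% of all genes tested. The fatty acid carrier gene fabp2 (Entrez gene 30708), a standard mark of absorptive enterocytes, had group means of 10448 in DMSO, 14224 in TCPM and 14114 in TCPMOH. That is 1.36-fold with TCPM (95% interval 1.23 to 1.50) and 1.35-fold with TCPMOH (1.16 to 1.57). The authors' deposited tables put the log2 change at 0.40 for TCPM (SE 0.065, adjusted p = 2.01e-07) and 0.36 for TCPMOH (SE 0.092, adjusted p = 0.00545). Both compound groups stood above DMSO by close to the same amount. The 2 folds use the same DMSO libraries, so they are not independent.

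The cellular retinol carrier gene rbp2a (Entrez gene 568032), whose product binds newly absorbed vitamin A, had means of 3305, 4527 and 4116. It was 1.37-fold higher with TCPM (1.24 to 1.51, adjusted p = 1.33e-07 in the authors' deposited table) and 1.25-fold with TCPMOH (1.07 to 1.45, adjusted p = 0.112). TCPMOH did not pass for rbp2a, although its group mean was also above that of DMSO.

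Of the apolipoprotein A-IV genes, whose products ride on exported fat particles, 1 of the 2 measured copies was called. The copy apoa4b.2 (Entrez gene 570354) had means of 4151, 5802 and 5851, which is 1.40-fold with TCPM (1.23 to 1.59, adjusted p = 0.000114) and 1.41-fold with TCPMOH (1.21 to 1.65, adjusted p = 0.00124) in the authors' deposited tables. The copy apoa4b.1 had means of 16449, 16982.5 and 17383, at 1.03-fold (0.949 to 1.12) and 1.06-fold (0.979 to 1.14), so a rise of the size seen in apoa4b.2 lies outside its intervals. In the RefSeq annotation of assembly GRCz12tu both copies lie in a single cluster with apoa4b.3, each with 1 protein-coding gene to the next. The difference between the copies was not tested, and reads of near-identical copies may be split between them in a way that is not given.

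The other genes of fat handling did not pass with either compound. The triglyceride synthesis gene mogat2 had means of 1446, 1638 and 1515, and the cholesterol uptake gene npc1l1, target of the drug ezetimibe, had 552, 614 and 675. Both had compound means above DMSO, with an unadjusted p under 0.05 for mogat2 with TCPM (p = 0.0468) and for npc1l1 with TCPMOH (p = 0.0335) in the authors' deposited DESeq2 tables. The lipid transfer gene mttp, which loads apolipoprotein B particles, had means of 1466, 1439 and 1401. It stood at 0.982-fold (0.868 to 1.11) and 0.956-fold (0.804 to 1.14). The bile acid carrier gene fabp6, a mark of ileal enterocytes, had 4287, 4315 and 4129.7, at 1.01-fold (0.858 to 1.18) and 0.963-fold (0.703 to 1.32). Both intervals of fabp6 include 1 and end below the folds of fabp2 with the same compound. The TCPMOH interval of fabp6 nevertheless overlaps that of fabp2 (1.16 to 1.57), and the difference between these genes was not tested.

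**Figure D2:**
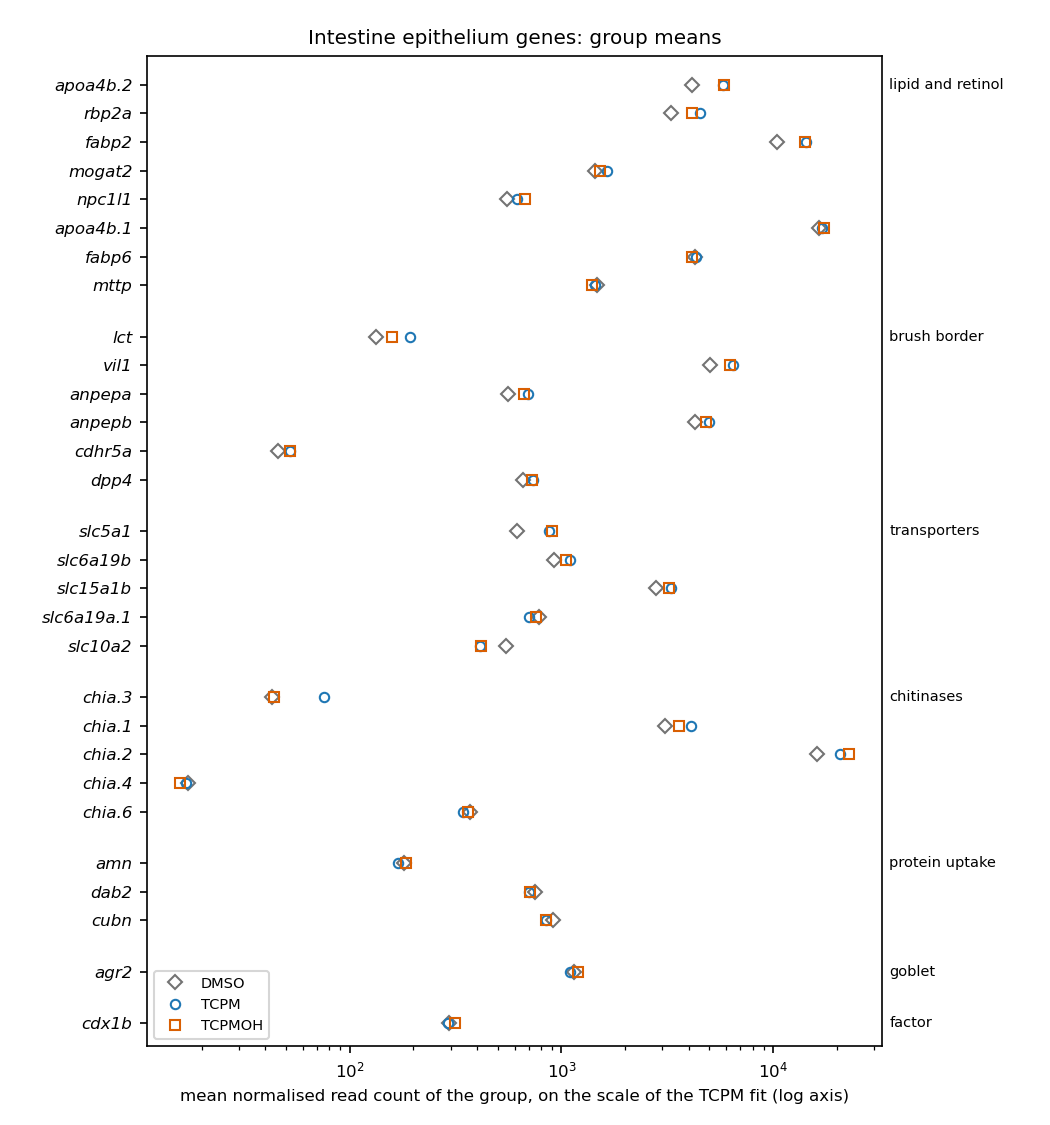
Group means of 29 intestine genes in DMSO (grey diamonds), TCPM (blue circles) and TCPMOH (orange squares), as normalised read counts on the scale of the TCPM fit (log axis), not corrected for transcript length. For fabp2, apoa4b.2, slc5a1 and chia.2 both compounds lie right of DMSO, and for chia.3 the TCPM mean of 75.8 stands apart from 42.9 in DMSO and 43.9 in TCPMOH.

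Brush border genes had means above DMSO in 6 of 6 cases with each compound, and 1 of the 6 was called, vil1 with TCPM. Of all genes with sufficient base mean, 49.9% had positive values with TCPM and 48.8% with TCPMOH. Calls of a higher value made up 1.27% of all genes tested with TCPM and 1.54% with TCPMOH. The 2 comparisons share their DMSO libraries, and the share of all genes positive in both was not computed. Villin, the product of vil1 (Entrez gene 393207), bundles the actin core of microvilli. Its means were 5043, 6432 and 6285, or 1.28-fold with TCPM (1.12 to 1.45, adjusted p = 0.0141) and 1.25-fold with TCPMOH (1.07 to 1.45, adjusted p = 0.111) in the authors' deposited tables.

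The lactase gene lct, which encodes a disaccharidase, had means of 133, 192 and 159, or 1.45-fold with TCPM (1.15 to 1.82) and 1.20-fold with TCPMOH (0.955 to 1.51). The aminopeptidase N gene anpepa had 560.4, 693 and 665, and its copy anpepb 4274, 4961 and 4811. With TCPM the authors' deposited DESeq2 table gives adjusted p values of 0.0689 for lct, 0.0775 for anpepa and 0.316 for anpepb, so these 3 did not pass. The dipeptidyl peptidase gene dpp4 had 661, 731 and 728, at 1.11-fold (0.973 to 1.25) and 1.10-fold (0.959 to 1.26). The microvillar cadherin gene cdhr5a had 46.0, 52.0 and 52.1, with intervals of 0.850 to 1.50 and 0.843 to 1.52.

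Of the 5 transporter genes slc5a1 rose with both compounds, beside 1.27% of all genes tested called higher with TCPM and 1.54% with TCPMOH. It encodes the sodium-coupled glucose transporter of the apical membrane (Entrez gene 393654). Its means were 619 in DMSO, 870.5 in TCPM and 898 in TCPMOH, which is 1.41-fold (1.23 to 1.61) and 1.45-fold (1.27 to 1.66). In the authors' deposited tables its log2 change was 0.41 for TCPM (SE 0.082, adjusted p = 0.000121) and 0.46 for TCPMOH (SE 0.086, adjusted p = 1.21e-05). With TCPMOH it had the smallest adjusted p of the intestine genes.

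The peptide transporter gene slc15a1b (PepT1) had means of 2781, 3301 and 3214, or 1.19-fold (1.06 to 1.33, adjusted p = 0.106) and 1.16-fold (1.03 to 1.30, adjusted p = 0.316) in the authors' deposited tables. The neutral amino acid transporter gene slc6a19b had 920.3, 1102 and 1051, and slc6a19a.1 had 779.6, 699 and 758. The intervals of slc6a19b ran from 0.889 to 1.61 and from 0.944 to 1.38, and those of slc6a19a.1 from 0.780 to 1.03 and from 0.843 to 1.12. The neighbouring copy slc6a19a.2, outside the chosen names, rose with TCPM at 1.22-fold (adjusted p = 0.0344 in the authors' deposited table), and stood at 1.20-fold with TCPMOH (adjusted p = 0.209).

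The ileal bile acid transporter gene slc10a2 had lower means with both compounds, 548 in DMSO against 410.3 in TCPM and 415 in TCPMOH. Its folds were 0.748 (0.628 to 0.891) and 0.757 (0.637 to 0.900). Neither passed in the authors' deposited DESeq2 tables, with adjusted p values of 0.0566 and 0.0599. With the adjustment limited to genes whose base mean was 50 or more, the TCPM value passed narrowly (adjusted p = 0.0496).

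Among the chitinase genes, whose products cleave the chitin of ingested prey and of fungi, 2 of 5 rose with TCPM and 1 of 4 with TCPMOH. The shares called higher over all genes tested were 1.27% and 1.54%. The gene chia.2 (Entrez gene 406338) had means of 16074, 20771 and 22703, or 1.29-fold with TCPM (1.18 to 1.42, adjusted p = 1.32e-05) and 1.41-fold with TCPMOH (1.22 to 1.64, adjusted p = 0.000583) in the authors' deposited tables. Its copy chia.1 (Entrez gene 406323) had 3099, 4084 and 3608, at 1.32-fold with TCPM (1.14 to 1.53, adjusted p = 0.0156) and 1.16-fold with TCPMOH (0.856 to 1.58, adjusted p = 0.922). For chia.1 the TCPMOH interval holds both no change and the rise seen with TCPM.

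The third copy, chia.3, had the largest fold of the intestine genes with TCPM. Its means were 42.9 in DMSO, 75.8 in TCPM and 43.9 in TCPMOH, at 1.77-fold with TCPM (1.17 to 2.67) and 1.03-fold with TCPMOH (0.771 to 1.36). In the authors' deposited DESeq2 table it did not pass with TCPM (p = 0.0069, adjusted p = 0.197), where its log2 fold change is 0.28, beside 0.82 before shrinkage.

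The copies chia.4, with means of 17.2, 16.8 and 15.9, and chia.6, with 368, 343 and 360.1, did not pass. The intervals of chia.6 were 0.796 to 1.09 and 0.835 to 1.15, which leave out the TCPM fold of chia.2. In GRCz12tu chia.1 and chia.2 are direct neighbours and chia.3 follows after 1 further protein-coding gene, whereas chia.4, chia.5 and chia.6 sit side by side on another chromosome. Of these copies chia.1 and chia.2 were called, both with TCPM and chia.2 also with TCPMOH, and a difference between the clusters was not tested.

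The 3 protein uptake genes of lysosome-rich enterocytes did not pass. The receptor gene cubn had means of 907, 845 and 841, its membrane partner gene amn 180.1, 169 and 184, and the adaptor gene dab2 753, 703 and 711. Folds lay between 0.927 and 1.02. With TCPM the upper bounds were 1.06 for cubn, 1.15 for amn and 1.06 for dab2, all below the folds of fabp2, apoa4b.2 and slc5a1. With TCPMOH the upper bounds were 1.10, 1.32 and 1.08, again below the folds of those 3. The TCPMOH interval of amn (0.790 to 1.32) nevertheless overlaps the TCPMOH intervals of fabp2, apoa4b.2 and slc5a1. The 3 genes set beside them were called with both compounds, so their folds are high by that choice. Upper bounds of the uncalled genes mttp (1.11 and 1.14) and apoa4b.1 (1.12 and 1.14) lay below those folds too. Those of lct, also uncalled, did not (1.82 and 1.51). The contrast is thus not particular to protein uptake genes, and differences between genes were not tested.

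Goblet cell and transcription factor genes did not pass either. The protein disulfide isomerase gene agr2, needed for mucin folding, had means of 1149, 1097 and 1196. The gut mucin gene muc2.1 had 7.39, 6.32 and 8.48, at intervals of 0.401 to 1.83 and 0.541 to 2.43 that show little at this depth. The homeobox gene cdx1b, which directs intestinal identity, had 296, 291 and 313, at 0.983-fold (0.843 to 1.15) and 1.06-fold (0.903 to 1.24).

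The comparison of TCPMOH with TCPM, made at the same dose and time, asked whether the hydroxyl group alters the response of these genes. No intestine gene differed between the compounds in the test of the difference (1 pair of compounds, two-sided normal test, Benjamini-Hochberg over 22732 genes), which called 0.453% of all genes, and 0.409% before shrinkage. Of the 29 genes, chia.3 had an unadjusted p below 0.05 in that normal test, which was run gene by gene, beside 4.62% of all genes. For chia.3 the normal test gave an unadjusted p of 0.0249 on the deposited scale and 0.00356 before shrinkage. Its TCPMOH mean was 0.58-fold that of TCPM before shrinkage (0.402 to 0.837), with an adjusted p of 0.896 on the deposited scale and 0.377 before shrinkage in the same normal test.

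A missed threshold does not show that the compounds act alike, so the intervals of TCPMOH over TCPM are given. They were 0.870 to 1.13 for fabp2, 0.873 to 1.17 for apoa4b.2, 0.901 to 1.18 for slc5a1 and 0.959 to 1.25 for chia.2, the 4 genes called with both. For the 3 genes called with TCPM and not with TCPMOH they were 0.797 to 1.04 for rbp2a, 0.850 to 1.12 for vil1 and 0.677 to 1.15 for chia.1. For slc10a2 the interval was 0.851 to 1.20. These 8 intervals reach no further than 0.677 (chia.1) and 1.25 (chia.2), and all of them include 1.

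**Figure D3:**
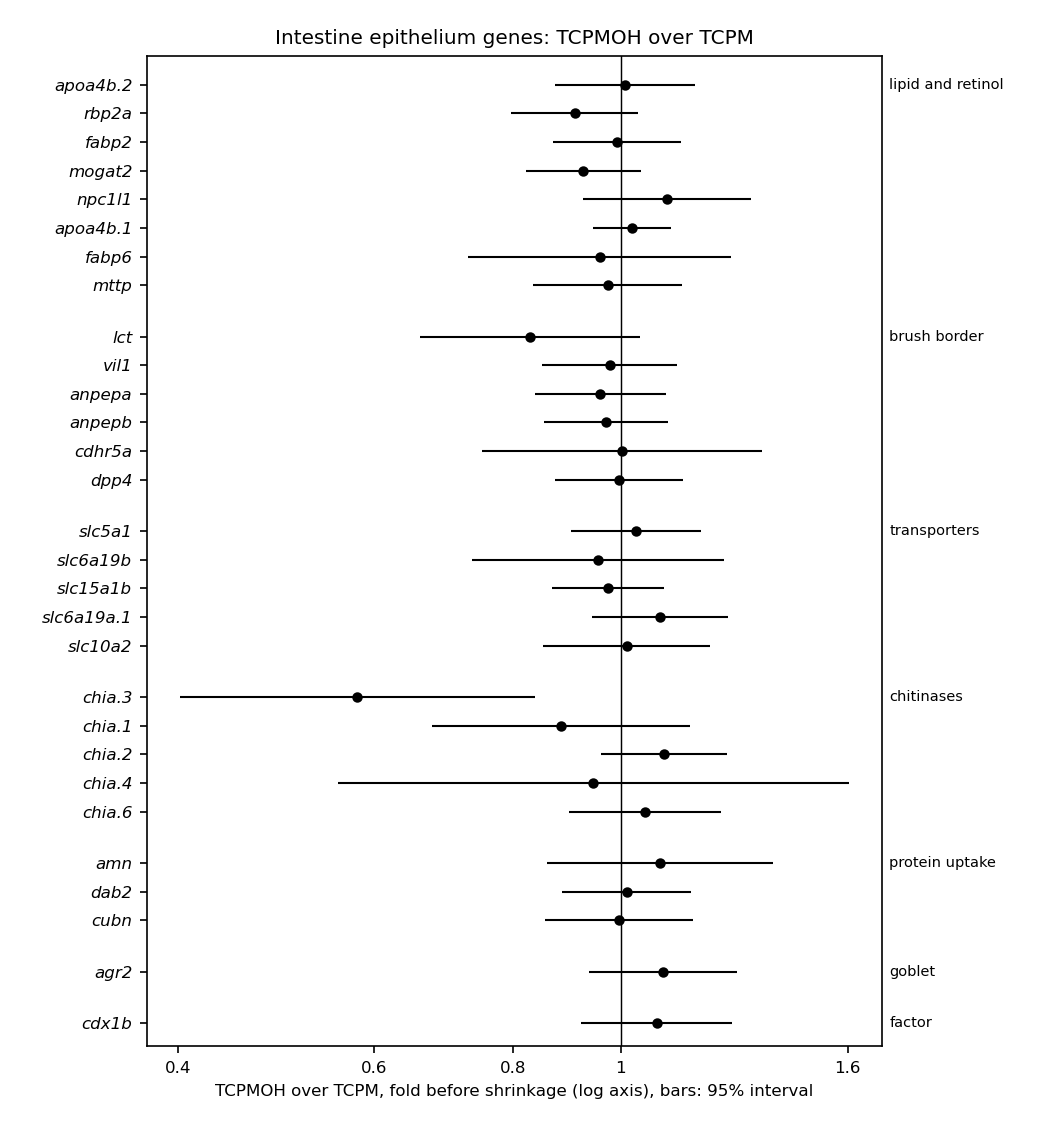
TCPMOH over TCPM as a fold before shrinkage (log axis) for 29 intestine genes, with 95% intervals that allow for the shared DMSO libraries. Of the 29 intervals that of chia.3, at 0.402 to 0.837, excludes 1, and those of the others include it.

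Further genes were counted from 13 lists, named for parts of the gut or for pancreas, liver, kidney tubule, yolk syncytial layer and epidermis. Samples were whole larvae, so a list's values cannot be assigned to the cell type it is named for. Among all genes tested, 1.27% were called higher with TCPM and 1.54% with TCPMOH, and 0.616% and 1.00% lower. Of all genes with sufficient base mean, 49.9% and 48.8% had positive values. By unadjusted p (under 0.05, DESeq2) 4.88% were higher and 3.62% lower with TCPM, and 5.02% and 4.25% with TCPMOH. These lists too were chosen with earlier results known, and none was tested as a set. They overlap, with 9 genes that sit in 2 lists. Of 21 other genes of absorptive enterocytes, 2 rose with each compound and none fell, with medians of 0.12 and 0.10 in log2 as deposited. The authors' deposited tables give 0.27 for the fatty acid carrier gene fabp1b.1 with TCPM (adjusted p = 0.0311), 0.28 and 0.43 for the lipoprotein receptor gene scarb1 with TCPM and TCPMOH (adjusted p = 0.0478 and 0.000173), and 0.37 for the sterol export gene abcg8 with TCPMOH (adjusted p = 0.0188). Of 25 other brush border genes, 1 rose with TCPM and 3 with TCPMOH, with medians of 0.13 and 0.15. Among them were the tetraspanin-like gene tm4sf4 with TCPM at 0.25 (adjusted p = 0.00991), and with TCPMOH the microvillar myosin gene myo7bb at 0.37 (adjusted p = 0.0113) and the scaffold gene pdzk1 at 0.30 (adjusted p = 0.0396) in the authors' deposited tables. Values of both lists were positive in 18 of 21 and 23 of 25 genes with TCPM and in 17 and 22 with TCPMOH.

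Of 24 other gut transporter genes that reached that base mean, 2 rose with TCPM, slc6a19a.2 among them, and 1 with TCPMOH. The monocarboxylate transporter gene slc16a1a rose with both, at 0.48 and 0.61 in the authors' deposited tables (adjusted p = 1.09e-05 and 1.7e-07). That list's medians were 0.10 with TCPM and 0.00 with TCPMOH. Of 13 other goblet cell genes 2 rose with TCPM and 1 with TCPMOH, the mucin genes muc5.3 with both, at 0.37 and 0.42 (adjusted p = 0.0197 and 0.00985), and muc5.1 with TCPM at 0.27 (adjusted p = 0.00374) in the authors' deposited tables.

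Of 23 other genes of lysosome-rich and ileal enterocytes, 22 had an adjusted p with each compound. None was called with TCPM and 1 with TCPMOH, the ceramidase gene asah1a at 0.38 in the authors' deposited table (adjusted p = 0.00225). With TCPM 1 was higher and 1 lower in DESeq2 by unadjusted p (under 0.05). The medians were -0.02 with both compounds. In each case 9 of the 23 values were positive, or 39.1%, beside 49.9% of all genes with TCPM and 48.8% with TCPMOH. Of 23 other gut transcription factor genes none was called with TCPM, with 1 in each direction in DESeq2 by unadjusted p (under 0.05). With TCPMOH 22 of them had an adjusted p, and the proneural factor gene ascl1a rose at 0.34 (adjusted p = 0.0211). The endoderm factor gene gata4 fell by 0.42 with TCPMOH (adjusted p = 0.0292), both in the authors' deposited table. None of 20 enteroendocrine genes and none of 16 genes of gut muscle and enteric neurons was called with either compound. Whole larvae were sampled, so the values of these genes are not specific to the gut. In DESeq2 0 and 2 of them were higher at an unadjusted p under 0.05 with TCPM, and 1 and 1 with TCPMOH. Values were positive in 13 of the 20 enteroendocrine genes with each compound, with medians of 0.07 with TCPM and 0.06 with TCPMOH. For muscle and enteric neurons 13 of the 16 were positive with each compound, with medians of 0.07 and 0.04.

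Markers of other cell types moved as follows. Of 17 exocrine pancreas genes, 16 had positive values with TCPM and 15 with TCPMOH, with medians of 0.23 and 0.07, and the phospholipase gene pla2g1b was called with TCPM (0.34, adjusted p = 0.00381 in the authors' deposited table). By unadjusted p (under 0.05) 10 of the 17 were higher in DESeq2 with TCPM and 0 with TCPMOH, and none was lower. Their summed group means were 207786, 266255 and 223814, and none was at 0. Of 20 kidney tubule genes, 16 had positive values with each compound, with medians of 0.05 and 0.04. The sulfate transporter gene slc13a1 rose with both, at 0.56 and 0.72 in the authors' deposited tables (adjusted p = 1e-08 and 3.99e-10). Their summed means were 18991.5, 20794 and 20791, with none at 0.

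Liver markers had 8 and 4 positive values of 18, with medians of -0.03 with both compounds. The iron hormone gene hamp fell with TCPM by 0.37 (adjusted p = 0.0195), and the haem-binding gene hpxa rose with TCPMOH at 0.60 (adjusted p = 4.17e-05) in the authors' deposited tables. Their summed means were 208712, 209332 and 201764, with none at 0. Of 13 genes of the yolk syncytial layer and yolk lipoproteins that reached the base mean of 10, apoea rose with both (0.32 and 0.32, adjusted p = 0.00513 and 0.0262) and apoc2 with TCPMOH (0.26, adjusted p = 0.0175) in the authors' deposited tables, with medians of 0.07 and 0.05 and summed means of 214904, 227049 and 220862. A second row of the yolk list's gene selenop was at 0 in both tables. Epidermis markers had medians of -0.01 and -0.05 over 13 genes. None was called in DESeq2, and by unadjusted p (under 0.05) 1 was higher and 1 lower with TCPM, and 0 and 2 with TCPMOH. The genes apoa1b and apoa2 entered the sums of both the liver and the yolk lists. The part of these cell types in the intestine values was not tested.

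**Figure D4:**
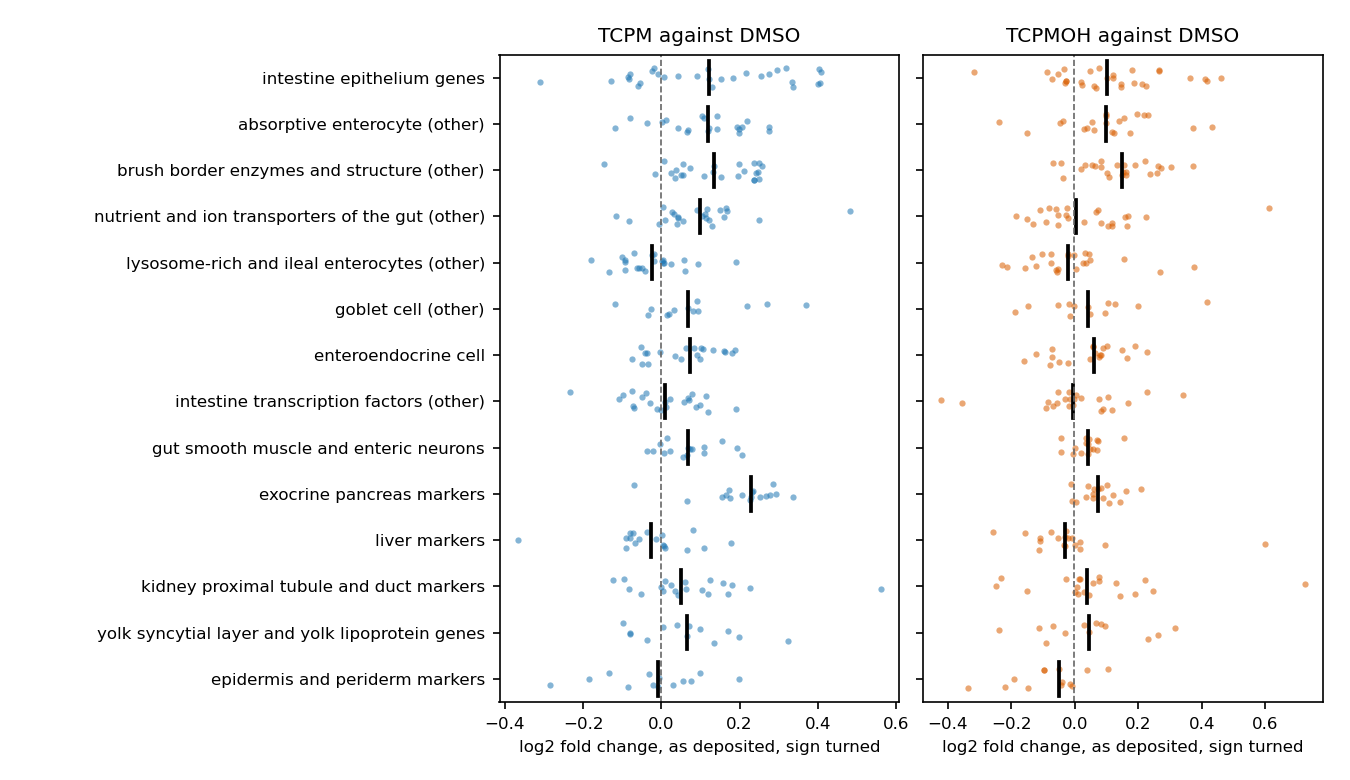
Log2 fold changes as deposited, with the sign turned to compound over DMSO, for single genes (dots) of the 29 intestine genes and 13 other lists with TCPM (left) and TCPMOH (right). Black bars are list medians and the dashed line is the median of all genes, near 0. The exocrine pancreas median is 0.23 with TCPM and 0.07 with TCPMOH, and that of lysosome-rich and ileal enterocytes is -0.02 with both.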

How the data were processed

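The submitters' processing notes list, without version or role, FastQC, cutadapt, STAR, DESeq2 and featureCounts. Per the labels, stranded mRNA libraries were sequenced as pairs of 100 nt reads. For the genome build, nothing is given in the sources used here. Each deposited table gives a mean signal (base mean: the average over libraries of counts divided by size factors), a log2 fold change, its standard error, the score of a Wald test, and that test's p-value, raw and Benjamini-Hochberg adjusted over 22223 (TCPM) or 21491 (TCPMOH) genes, per the file headers and values. No column holds a single sample.

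Base means of genes with a single read took 8 values per table, which gave the libraries, their size factors and the shared controls. Genes read in DMSO libraries alone (548 and 654) all had positive deposited values, so signs were turned. The authors' standard errors peak at the prior SD of a ridge fit divided by 2 (prior SD 0.216 and 0.248). Each error has 2 solutions before shrinkage, and the pair whose DMSO means matched between tables was kept, to within 0.0013 in log2 for the 29 genes. Shrinkage leaves the Wald test as it was.

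For TCPMOH minus TCPM, deposited log2 fold changes were subtracted, and the shared controls entered as a covariance of 1 SE times the other, divided by 2. The functions were tested on simulated data (Python 3.11.15, scipy 1.17.1), shrunken with the same formula and prior SDs that were then undone. That run checks the code and cannot show how the authors shrank their values. Members and lists were chosen with earlier results of these data known. Full values are given for members called in either table or in the difference and for copies of a family, and of the other lists for genes called in either table, at most 6 per list, except 1 gene that is not reported here. Alternatives covered thresholds, filters, shrinkage, centring, copies, covariance and, added after seeing the data, case matching. Intervals cover the spread between libraries only as the fit models it.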

Additional observations from a re-analysis of the deposited data

Results flagged for a closer look

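The liver marker gene hpxa (hemopexin) had a log2 fold change that was 0.42 higher with TCPMOH than with TCPM on the deposited scale, and the test of that difference passed (normal test, adjusted p = 0.0218). Before shrinkage the difference was 0.17 and did not pass in the same normal test (adjusted p = 0.9996). Group means were 125 in DMSO, 207 in TCPM and 234 in TCPMOH. The call of a difference for hpxa thus depended on the scale.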

How the results depend on the processing

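The counts of called intestine genes (7 with TCPM, 4 with TCPMOH) ranged from 5 to 10 and from 4 to 5 over the other thresholds, filters, scales and centring tried, and dropped to 4 and 2 when the copies of the chia, apoa4b, anpep and slc6a19 families were left out, which removes called genes by construction. The medians ranged from 0.10 to 0.18 with TCPM and from 0.08 to 0.14 with TCPMOH. No intestine gene differed between the compounds under any of the 6 alternatives, with 0 to 3 at an unadjusted p under 0.05, while the count over all genes (103) was 15 with the covariance at 0 and 182 with an estimated correlation. In 4 cases uncalled differences close to 0 turned sign: cubn (8.09e-05) and dpp4 (0.000426) when centred, slc10a2 (0.0172) and slc6a19b (-0.0679) with shrinkage undone. Leaving out single libraries was not run, since the tables hold no value per library. No paired analysis was possible because the tables hold no value per library and the labels do not assign samples to the 3 experimental replicates. Genes with low counts, such as muc2.1 and chia.4, have intervals too wide for a statement.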
